A study of Homo sapiens with 4 samples.

Results

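The mitotic genes described here are 44 genes that encode the machinery of cell division, chosen by name. The rule uses no measured value, although earlier results of these data were known when the list was made. All 44 had a row in the deposited table of normalized expression, and all were among the 16137 genes tested, so none was lost to the filter on low counts. They were followed in Hs578T, an established human breast carcinoma line. They were co-transfected with GFP and either a control RNA without a target (SCR) or an siRNA against TLN1 (siTLN1), the gene of the adhesion adaptor talin-1. Each RNA was given at 1.6 µM and polyadenylated RNA was collected after 48 h. Both groups therefore carried the transfection and GFP, and they differed by the RNA. Each group held 2 libraries described as biological replicates, called library a and library b here after a number that recurs in the count columns of both groups. It is 1 cell line, and whether 1 siRNA or a pool was used is not given in the sources used here.

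Total counts per library ran from 31854322 to 46353297. TLN1, the target, was at 868 and 874 CPM (counts scaled to library size, with TMM factors) in the SCR libraries and at 51.9 and 44.8 CPM in the siTLN1 libraries, or 5.55% of the SCR mean. VIM, FN1, CD44 and ZEB1, markers of a mesenchymal-like state, were between 110 and 31857 CPM by total counts. Of the luminal epithelial markers EPCAM, KRT19, ESR1 and PGR, none exceeded 0.144 CPM in any library, and CDH1 did not exceed 0.863 CPM, although the labels name the cells epithelial. KRT8 and KRT18 were present, KRT8 at 14.9 to 20.7 CPM and KRT18 at 104 to 131 CPM, a level like that of ZEB1 (110 to 122 CPM). Of all genes tested, 6.07% (980 genes, 371 higher and 609 lower in siTLN1) passed edgeR's quasi-likelihood test, at a Benjamini-Hochberg adjusted p under 0.05.

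Mitosis is driven by cyclin B and cyclin A bound to CDK1, which a group of further kinases, among them PLK1 and the Aurora kinases, extends to the spindle, the kinetochores and the cleavage furrow. The spindle checkpoint holds back the anaphase-promoting complex (APC/C) until every kinetochore is attached, and the complex then marks securin and the cyclins for destruction. Transcripts of most of these genes peak in G2 and M phase, so in bulk RNA of a growing line their level follows both the share of dividing cells and the amount of RNA in each, which cannot be told apart here. Their transcription is known to depend on the MuvB core with B-MYB (the product of MYBL2) and FOXM1, which act through a short promoter element, the cell cycle genes homology region (CHR), often beside CCAAT boxes bound by the factor NF-Y.

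The CHR element is shown first because most of these promoters hold its letters and the choice of members did not use it. The RefSeq promoter table (GRCh38.p14, 250 bases before to 50 bases after each start site) held 47 promoters of 37 of the 44 members. The words TTTGAA or TTTAAA, the CHR letters, were present on either strand in 38 of these 47 promoters (80.9%), against 24.0% of all 35116 promoters in the table and 17.6% of the promoters of tested genes. TTTGAA alone was in 66.0% of member promoters and 15.2% of all promoters. CCAAT, on either strand, was in 76.6% of member promoters and 34.6% of all promoters. These are matches of letters in a window, given as a description and not as binding sites. In the windows that follow, each of 30 bases on the strand of the gene, the capitals mark the CHR letters. They belong to members described below, and KIF20A is set first because it is the member that passed the test.

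KIF20A promoter, GRCh38.p14, chr5:138179059-138179088, plus strand: cgcagcgcgtaaTTTAAAatattgtatctg
NUF2 promoter, chr1:163321958-163321987, plus strand: ggaggcggcaagTTTGAAaagtgatgacgg
CDC25C promoter, chr5:138331817-138331846, minus strand: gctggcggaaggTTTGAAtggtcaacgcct
BUB1B promoter, chr15:40161034-40161063, plus strand: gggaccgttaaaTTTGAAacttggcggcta
HMMR promoter, chr5:163460592-163460621, plus strand: aatgtggggagaTTTGAAtttgaaaccggt
ESPL1 promoter, chr12:53268256-53268285, plus strand: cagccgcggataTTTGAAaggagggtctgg

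The first base of the CHR letters lay 41 bases before the annotated start in KIF20A, 30 before it in CDC25C, 23 before it in BUB1B, 28 before it in HMMR and 31 before it in ESPL1, and at base 17 after it in NUF2. HMMR repeats the element directly, with the second copy in lower case in its window. Counted from another annotated start of CDC25C, the same letters lay at base 44 after it. ECT2 and TOP2A, also described below, held TTTGAA but their windows are not printed. In TOP2A the matches began 194 and 151 bases before the start. In ECT2, over its annotated starts, they began 242, 182 and 115 bases before and at base 35 after. The matches were thus not all close to a start. The table's promoters of CCNA2, BUB1 and AURKB held neither CHR word.

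The question for these genes was whether their transcripts differed after TLN1 depletion. Of the 44 members, 1 passed the test: KIF20A, which was lower in siTLN1. No member passed as higher. That is 2.27% of members, against the background of 6.07% of all genes tested (3.77% lower and 2.3% higher). The fitted log2 fold changes, given throughout for siTLN1 against SCR, ran from −0.38 for KIF20A to 0.30 for NUF2. Their median was 0.062, and 34 of the 44 were above 0. Over all tested genes the median was 0.0033, and 50.6% were above 0. The calls depend on how the replicate numbers are treated. In a limma-trend fit with a block for the replicate number, 12 members passed an adjusted p under 0.05, 10 higher and 2 lower. In that fit 22.6% of all genes passed (1709 higher and 1936 lower). No label states that equal numbers share a preparation, so it is treated as an alternative, described below.

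The intervals of most members were narrow. The median standard error of their log2 fold changes was 0.099, against 0.12 over all genes tested and 0.105 over those at a mean of 5 CPM or more. Most members are abundant: their median level in SCR was 133 CPM, against 15.5 CPM for all tested genes. For 43 of the 44 members the 95% interval lay within 1.5-fold in either direction. The exception was KIF20A, whose interval ran from −0.586 to −0.180 on the log2 scale, just past that bound. The interval of NUSAP1, whose level is uncertain as described below, ran from −0.574 to 0.584, just inside it. The interval of every member lay within 2-fold. At an unadjusted p under 0.05 there were 7 members, 5 higher (CDC25C, BUB1, BUB1B, CENPF and NUF2) and 2 lower (KIF20A and CDC25B). That is 15.9% of members, against 19.8% of all genes tested (9.04% higher and 10.8% lower) and 22.8% of those at a mean of 5 CPM or more. In 10 members both siTLN1 libraries lay above both SCR libraries, and in 3 (CDC25B, CENPA and KIF20A) both lay below. Over all genes tested, 23.9% lay above and 24.6% lay below, so the 3 that lay below are a smaller share of the 44 members.

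**Figure D1:**
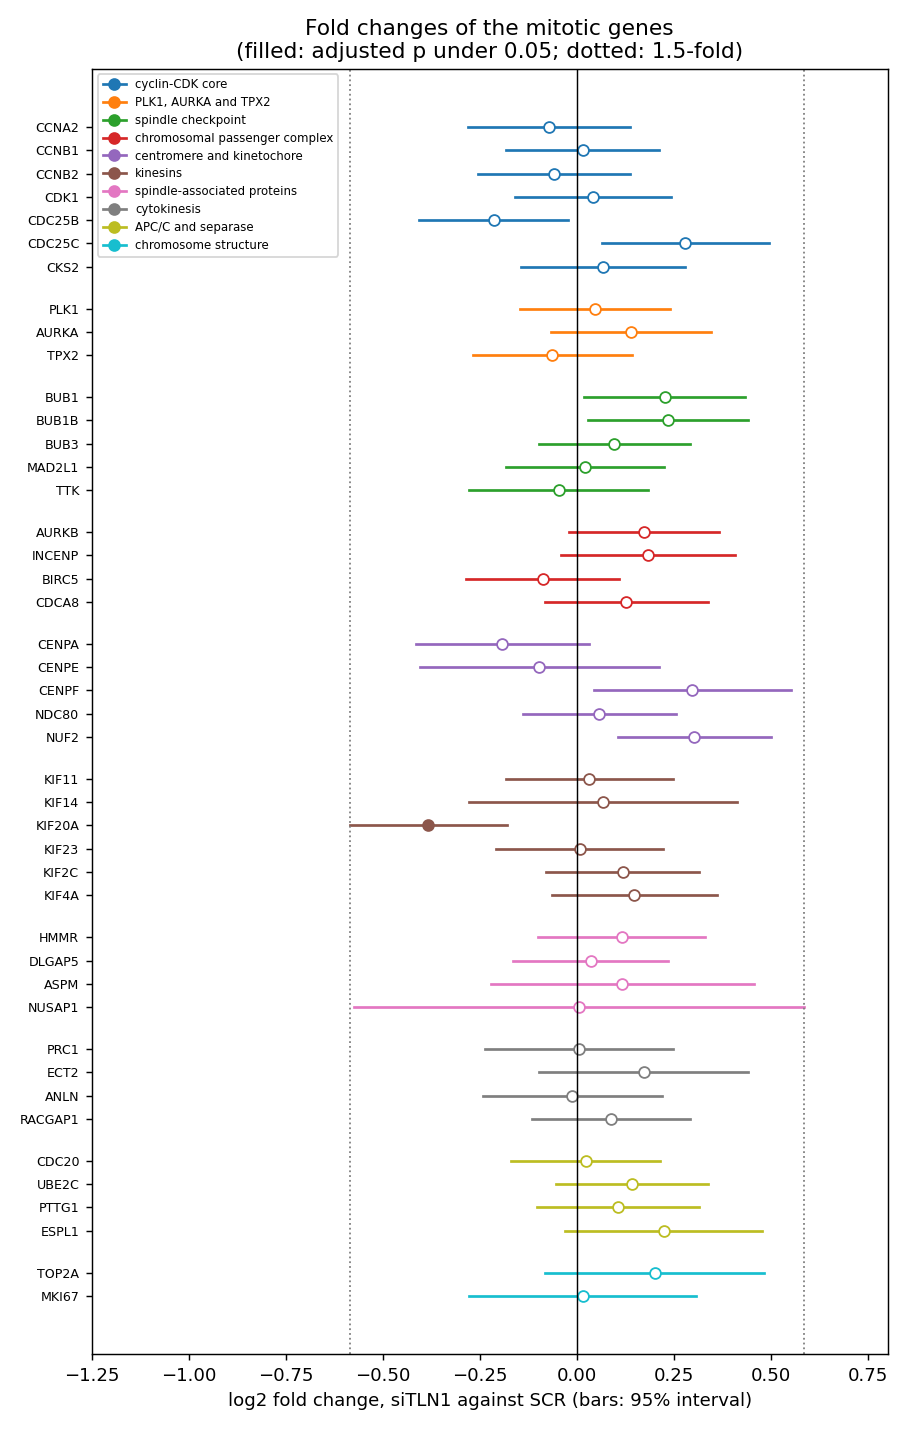
Each row is a mitotic gene, grouped by role. Points are fitted log2 fold changes of siTLN1 against SCR (2 libraries per group), bars are 95% intervals, and the dotted lines mark 1.5-fold. KIF20A, at −0.38, is the only filled point (adjusted p under 0.05), and the other points lie between −0.21 and 0.30.

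The kinesins are the microtubule motors of the spindle and midzone. KIF20A (ENSG00000112984.12, GRCh38, chromosome 5, 138178719 to 138187723, plus strand) encodes a motor of the anaphase midzone needed for cytokinesis, also known as MKLP2. It was at 288 and 256 CPM in SCR libraries a and b and at 203 and 214 CPM in siTLN1 libraries a and b. Both siTLN1 libraries lay below both SCR libraries, and the siTLN1 mean was 76.7% of the SCR mean. The SCR mean was 272 ± 22.8 CPM (SD, n = 2), and that of siTLN1 208 ± 7.36 CPM (SD, n = 2). On the log2 scale the change was −0.38 ± 0.096 (SE), at an adjusted p of 0.0247 (edgeR). The direction held when each library was left out, but the call did not. The adjusted p was 0.178 without SCR library a, 0.241 without siTLN1 library a and 0.0653 without siTLN1 library b. It was 0.0577 with no filter on low counts. Of its exon bases, 5.35% are shared with BRD8 on the opposite strand, and the counting used no strand option.

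None of the other 5 kinesins passed the test. KIF23, the MKLP1 motor of the centralspindlin complex at the same midzone, was at 220 and 184 CPM in SCR and at 208 and 197 CPM in siTLN1, with the siTLN1 libraries inside the SCR range. Its log2 fold change was 0.0069, with a 95% interval from −0.21 to 0.22. KIF11, which pushes the spindle poles apart, had a log2 fold change of 0.031, and KIF14 one of 0.067. KIF2C, a microtubule depolymerase at centromeres, was at 207 and 188 CPM in SCR against 215 and 214 CPM in siTLN1. KIF4A, a chromosome-arm motor, had a log2 fold change of 0.15 (adjusted p 0.459, edgeR).

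The cyclin-CDK core sets entry into mitosis. CCNB1, the main mitotic cyclin, was at 251 and 233 CPM in SCR and at 237 and 252 CPM in siTLN1. CDK1, its kinase, was at 116 and 102 CPM in SCR and at 110 and 114 CPM in siTLN1. The groups overlapped for both, and the 95% intervals of their log2 fold changes were −0.18 to 0.21 for CCNB1 and −0.16 to 0.24 for CDK1. CCNA2, which acts in S phase and early mitosis, had a log2 fold change of −0.072 and CCNB2 one of −0.059. CKS2, a small CDK-binding subunit, had one of 0.067.

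Among the members, the phosphatases that remove the inhibitory phosphates of CDK1 are CDC25B and CDC25C, and their fold changes lay on opposite sides of no change. CDC25C (ENSG00000158402.20, chromosome 5, 138285265 to 138338355, minus strand) was at 25.5 and 23.8 CPM in SCR and at 29.6 and 30.2 CPM in siTLN1. CDC25B was at 285 and 276 CPM in SCR and at 242 and 241 CPM in siTLN1. In neither gene did the groups overlap, yet neither passed the test: the log2 fold change of CDC25C was 0.28 ± 0.10 (SE, adjusted p 0.127, edgeR) and that of CDC25B −0.21 ± 0.091 (SE, adjusted p 0.192, edgeR). An exact permutation test of 2 libraries against 2 cannot go below a p of 0.333, so single-gene evidence here rests on the model fitted across all genes.

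PLK1 and AURKA are the kinases of centrosome maturation and spindle assembly, and TPX2 activates AURKA on microtubules. AURKA (ENSG00000087586.17, chromosome 20, 56369389 to 56392337, minus strand) was at 164 and 142 CPM in SCR and at 166 and 171 CPM in siTLN1, a log2 fold change of 0.14 ± 0.097 (SE, adjusted p 0.476, edgeR). The lower siTLN1 library and the higher SCR library were nearly level. PLK1 was at 157 and 148 CPM in SCR against 160 and 155 CPM in siTLN1. TPX2 was at 597 and 551 CPM in SCR against 541 and 558 CPM in siTLN1. Of the exon bases of PLK1, 12.8% are shared with annotation on the opposite strand.

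Spindle checkpoint genes encode the proteins that delay anaphase. BUB1B (ENSG00000156970.12, chromosome 15, 40161023 to 40221136, plus strand), which encodes BUBR1, was at 116 and 101 CPM in SCR and at 132 and 123 CPM in siTLN1. BUB1, a kinase that docks the checkpoint proteins at kinetochores, was at 145 and 127 CPM in SCR and at 166 and 153 CPM in siTLN1. Both genes had both siTLN1 libraries above both SCR libraries, at log2 fold changes of 0.23 ± 0.098 (SE, adjusted p 0.185, edgeR) for BUB1B and 0.23 ± 0.098 (SE, adjusted p 0.204, edgeR) for BUB1. BUB3, their binding partner, was at 183 and 168 CPM in SCR and at 188 CPM in each siTLN1 library. MAD2L1, the checkpoint effector MAD2, had a log2 fold change of 0.021. TTK, the upstream kinase MPS1, had one of −0.047. The exons of BUB1B share 10.2% of their bases with other annotation on the same strand, and the largest overlap is with PAK6.

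The chromosomal passenger complex joins the kinase AURKB to INCENP, survivin (BIRC5) and borealin (CDCA8). AURKB (ENSG00000178999.13, chromosome 17, 8204733 to 8210600, minus strand) was at 76.4 and 75.9 CPM in SCR and at 86.1 and 85.5 CPM in siTLN1. Its replicates were close together and the groups did not overlap, with a log2 fold change of 0.17 ± 0.091 (SE, adjusted p 0.317, edgeR). INCENP was at 122 and 104 CPM in SCR and at 137 and 119 CPM in siTLN1, where the groups overlapped. CDCA8 had a log2 fold change of 0.13 and BIRC5 one of −0.089, so the 4 subunits did not share a sign and none passed the test.

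Among centromere and kinetochore genes, NUF2 (ENSG00000143228.13, chromosome 1, 163266576 to 163355764, plus strand) had the highest fold change of all members. It was at 91.0 and 84.1 CPM in SCR and at 109 and 107 CPM in siTLN1. Both siTLN1 libraries lay above both SCR libraries. The log2 fold change was 0.30 ± 0.093 (SE), and edgeR's adjusted p of 0.0662 missed the threshold. With each library's trend over gene length removed, NUF2 had a log2 fold change of 0.31 and passed, at an adjusted p of 0.0328. NDC80, its partner in the microtubule-binding NDC80 complex, was at 118 and 108 CPM in SCR against 115 and 121 CPM in siTLN1, and its 95% interval ran from −0.14 to 0.26.

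CENPF, a large outer kinetochore protein, was at 497 and 415 CPM in SCR and at 616 and 504 CPM in siTLN1. Its log2 fold change of 0.30 ± 0.12 (SE, adjusted p 0.173, edgeR) did not pass with all libraries. CENPF in library b was at 0.835 of library a in SCR and at 0.817 of it in siTLN1. Fits without SCR library a or siTLN1 library b, described below, thus compare groups that are unequal in a and b libraries. CENPA, the centromeric histone H3 variant, was at 36.1 and 31.1 CPM in SCR and at 30.2 and 28.7 CPM in siTLN1. CENPE, a kinetochore motor, was at 164 and 127 CPM in SCR and at 153 and 119 CPM in siTLN1. For CENPE the spread between libraries of a group was larger than the difference between groups.

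The spindle-associated proteins bind and bundle microtubules. HMMR (ENSG00000072571.20, chromosome 5, 163460203 to 163491941, plus strand) was at 73.9 and 63.1 CPM in SCR and at 77.3 and 71.0 CPM in siTLN1, a log2 fold change of 0.11 ± 0.10 (SE, adjusted p 0.598, edgeR). ASPM, a spindle-pole protein, was at 214 and 161 CPM in SCR and at 232 and 174 CPM in siTLN1, again with more spread within groups than between them. DLGAP5, a kinetochore-fibre protein, had a log2 fold change of 0.035. NUSAP1 was at no more than 1.15 CPM in any library and is uncertain, because 81.4% of its exon bases in the annotation used for counting also belong to other genes.

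The cytokinesis genes build the midzone and the contractile ring. ECT2 (ENSG00000114346.13, chromosome 3, 172750682 to 172821474, plus strand), the exchange factor that activates RhoA at the cleavage furrow, was at 236 and 183 CPM in SCR and at 255 and 216 CPM in siTLN1. The groups overlapped, and its log2 fold change was 0.17 ± 0.12 (SE, adjusted p 0.498, edgeR). ANLN, anillin, which links actin, myosin and septins in the ring, was the most abundant member, at 928 and 776 CPM in SCR and 881 and 808 CPM in siTLN1. Its log2 fold change was −0.013, with a 95% interval from −0.24 to 0.22. RACGAP1, the partner of KIF23 in centralspindlin, had a log2 fold change of 0.088. PRC1, the midzone bundler, had one of 0.0053 at 16.1 to 18.6 CPM, and 61.9% of its exon bases are shared with other genes, so its level is uncertain too.

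The APC/C activator CDC20 was level across libraries, at 259 and 256 CPM in SCR and 259 and 264 CPM in siTLN1. UBE2C, a ubiquitin-conjugating enzyme of the complex, was at 98.4 and 94.5 CPM in SCR and at 102 and 111 CPM in siTLN1. PTTG1, securin, had 3 libraries between 122 and 124 CPM, and siTLN1 library b stood above them at 143 CPM. ESPL1 (ENSG00000135476.12, chromosome 12, 53268299 to 53293638, plus strand) encodes separase, the protease that opens cohesin. It was at 54.1 and 49.2 CPM in SCR and at 68.0 and 52.8 CPM in siTLN1, with siTLN1 library a alone above the SCR range. Its log2 fold change was 0.22 ± 0.12 (SE, adjusted p 0.323, edgeR).

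Of the chromosome structure genes, TOP2A (ENSG00000131747.15, chromosome 17, 40388525 to 40417896, minus strand), the topoisomerase that untangles sister chromatids, was at 676 and 528 CPM in SCR and at 760 and 622 CPM in siTLN1. Its log2 fold change was 0.20 ± 0.13 (SE, adjusted p 0.443, edgeR). MKI67, whose product Ki-67 coats mitotic chromosomes and is widely used to mark proliferating cells, was at 699 and 564 CPM in SCR and at 720 and 556 CPM in siTLN1. The MKI67 values of the a libraries lay near each other, as did those of the b libraries, and the group difference of 0.014 on the log2 scale had a 95% interval from −0.28 to 0.31.

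Per length of exon, on the RPKM scale (counts scaled to exon length and library size), the highest SCR levels were those of TPX2 at 159, ANLN at 142 and CDC20 at 128, and CCNB1 was at 99.5. Leaving aside NUSAP1 and PRC1, the lowest were those of ESPL1 at 5.82, CDC25C at 7.38 and KIF14 at 7.64. CKS2, short and at 59.1 CPM on average in SCR, reached 95.9 RPKM, near TOP2A at 94.4.

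A difference between the a and b libraries ran through the members. SCR library b was below SCR library a in 41 of the 44 members (93.2%, against 49.7% of all tested genes). siTLN1 library b was below siTLN1 library a in 28 (63.6%, against 49.6%). The median log2 ratio of b to a over the members was −0.18 in SCR and −0.046 in siTLN1, and over all tested genes it was 0.0017 and 0.0025. KIF14 had the lowest ratio in SCR, with library b at 0.742 of library a, and ASPM had 0.752 in both groups. Measured from each gene's own mean over the 4 libraries, the median member lay at 0.051 in SCR library a, −0.13 in SCR library b, 0.053 in siTLN1 library a and 0.0084 in siTLN1 library b, on the log2 scale. SCR library b is thus the library that stands lowest for these genes. Without it the median log2 fold change of the members was 0.0003, with 22 of 44 above 0, and without SCR library a it was 0.15. What this library number marks was not tested.

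**Figure D2:**
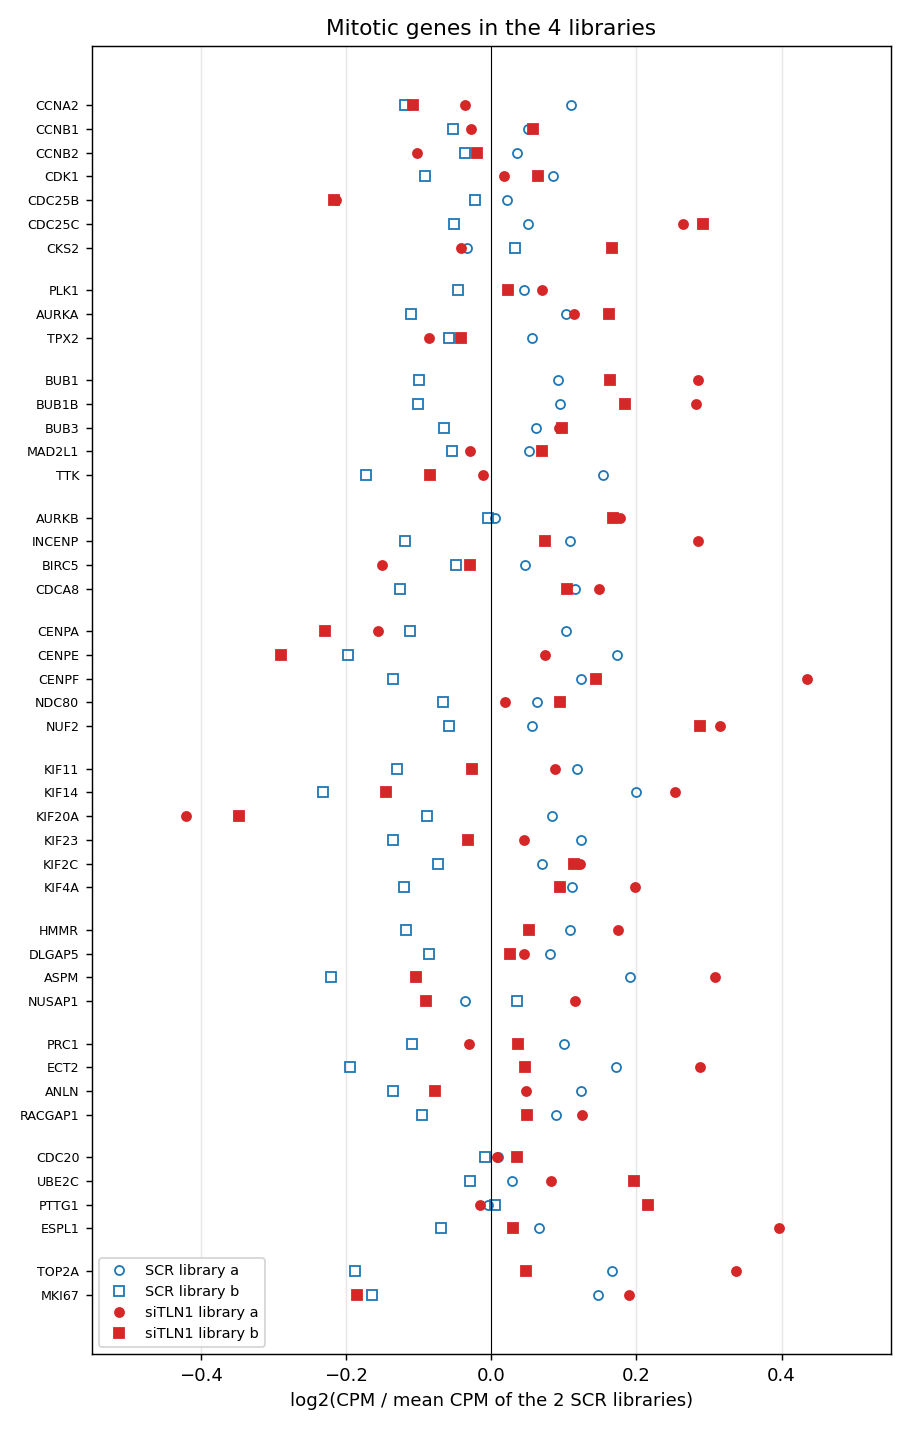
Each row is a mitotic gene and each symbol 1 library, placed at the log2 ratio of its CPM to the mean of the 2 SCR libraries. Blue open symbols are SCR, red filled symbols siTLN1, circles library a and squares library b. In 41 rows the SCR square lies left of the SCR circle, and for KIF20A both red symbols lie left of both blue ones.

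Among the transcription regulators of these genes, MYBL2 had the largest change. MYBL2 (chromosome 20, 43667019 to 43716495, plus strand) was at 224 and 214 CPM in SCR and at 69.7 and 74.6 CPM in siTLN1. The groups lay far apart. It fell by 1.60 on the log2 scale, and its value stayed between −1.65 and −1.55 in every alternative run. FOXM1 was at 242 and 214 CPM in SCR and at 219 and 209 CPM in siTLN1, where the groups overlapped. FOXM1 had a log2 fold change of −0.094 (adjusted p 0.658, edgeR), and 15.9% of its exon bases are shared with annotation on the opposite strand. The MuvB subunits LIN9, LIN52 and LIN54 had log2 fold changes of 0.034, 0.10 and −0.10, and none of them passed. NFYA, a subunit of the CCAAT-binding factor NF-Y, was at 79.5 and 77.2 CPM in SCR and at 97.3 and 102 CPM in siTLN1, and rose by 0.35 on the log2 scale (adjusted p 0.032, edgeR). That call was lost without each library in turn (adjusted p 0.0578 to 0.183) and with no filter on low counts (0.0566). Of 25 regulators tested, 1 rose and 1 fell (8% in all, near the background of 6.07%), and their median log2 fold change was 0.030. NFYB and NFYC, the other NF-Y subunits, did not pass. How far the drop of MYBL2 bears on the members was not tested.

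**Figure D3:**
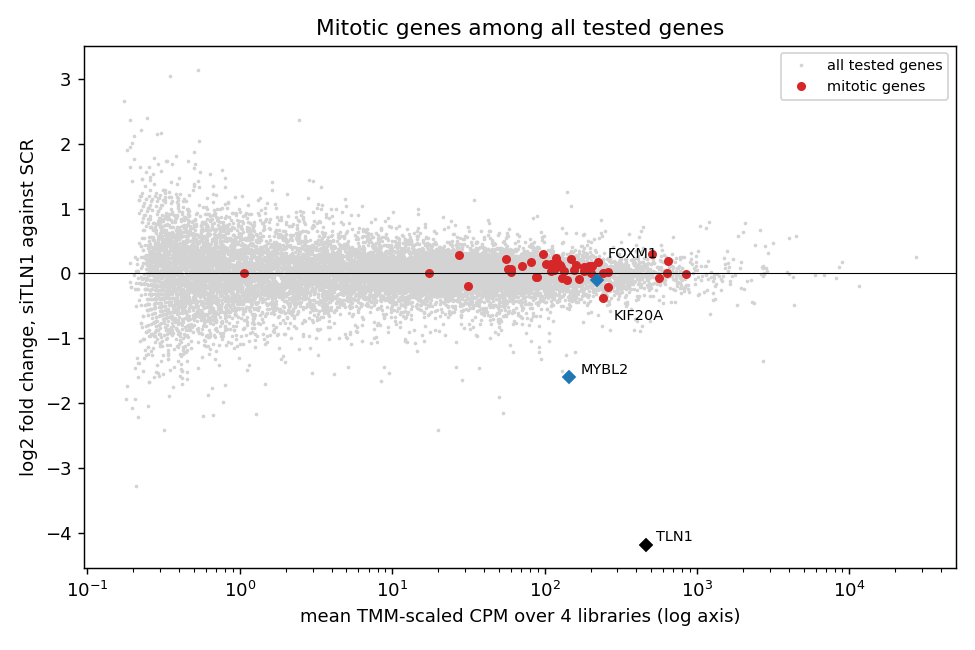
Each grey point is 1 of 16137 tested genes, by mean CPM over the 4 libraries (log axis) and log2 fold change of siTLN1 against SCR. Red points are the 44 mitotic genes, which lie between −0.38 and 0.30, while MYBL2 lies at −1.60 and the target TLN1 at −4.17.

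Other genes of mitosis and the cell cycle, 178 in 7 lists and all tested, gave 12 changed genes, of which 3 were higher and 9 lower. That share of 6.74% is close to the 6.07% of all tested genes (2.3% higher and 3.77% lower), so the counts per list describe single genes. Of 34 further kinetochore and centromere genes, 1 fell: MIS18A, a loading factor of CENPA, went from 23.3 and 26.1 CPM to 18.0 and 16.0 CPM (log2 fold change −0.54, adjusted p 0.00813, edgeR). CENPA itself is described above and did not pass. Of 22 cohesin and condensin genes, WAPL, which releases cohesin from chromosomes, fell by 0.35 on the log2 scale. Of 17 APC/C genes, ANAPC16 fell by 0.45 and ANAPC15 fell by 0.44. In ANAPC15, 27.1% of the exon bases overlap annotation on the other strand. Of 37 spindle and centrosome genes, HAUS6, a subunit of the augmin complex that nucleates spindle microtubules, fell by 0.49. No other member of these 4 lists passed.

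The mitotic entry list of 15 genes had 1 higher and 2 lower. WEE1, the kinase that places the inhibitory phosphate on CDK1, went from 49.6 and 41.0 CPM in SCR to 72.2 and 63.2 CPM in siTLN1. It rose by 0.58 on the log2 scale (adjusted p 0.0051, edgeR). BORA, which helps AURKA activate PLK1, fell by 0.53 (adjusted p 0.0373, edgeR). Annotation on the opposite strand shares 37.0% of its exon bases, and the largest overlap is with DIS3. ARPP19, an inhibitor of the phosphatase that opposes CDK1, fell by 0.39, and is named after its value was seen. The 28 S phase genes had 1 higher, GINS1 of the replicative helicase (0.48 on the log2 scale), and 1 lower, CCNE1, cyclin E1, which fell by 0.73. The list medians ran from −0.090 for mitotic entry to 0.059 for cohesin and condensin, against 0.062 for the members and 0.0033 for all genes. Without siTLN1 library a, the calls of WEE1 (adjusted p 0.0871), CCNE1 (0.0732) and ANAPC16 (0.289) were lost, and without siTLN1 library b that of MIS18A (0.0837). HAUS6 lost its call when SCR library a (0.071) or siTLN1 library b (0.0981) was left out, and GINS1 when SCR library b (0.1003) or siTLN1 library a (0.158) was. The calls of WAPL, ANAPC15, BORA and ARPP19 were lost when low counts were not filtered (adjusted p 0.0885, 0.0992, 0.0867 and 0.097) and in fits that left out a library. ANAPC15 also lost its call with DESeq2 (0.0839) and limma-voom (0.0504), and BORA with DESeq2 (0.0504).

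**Figure D4:**
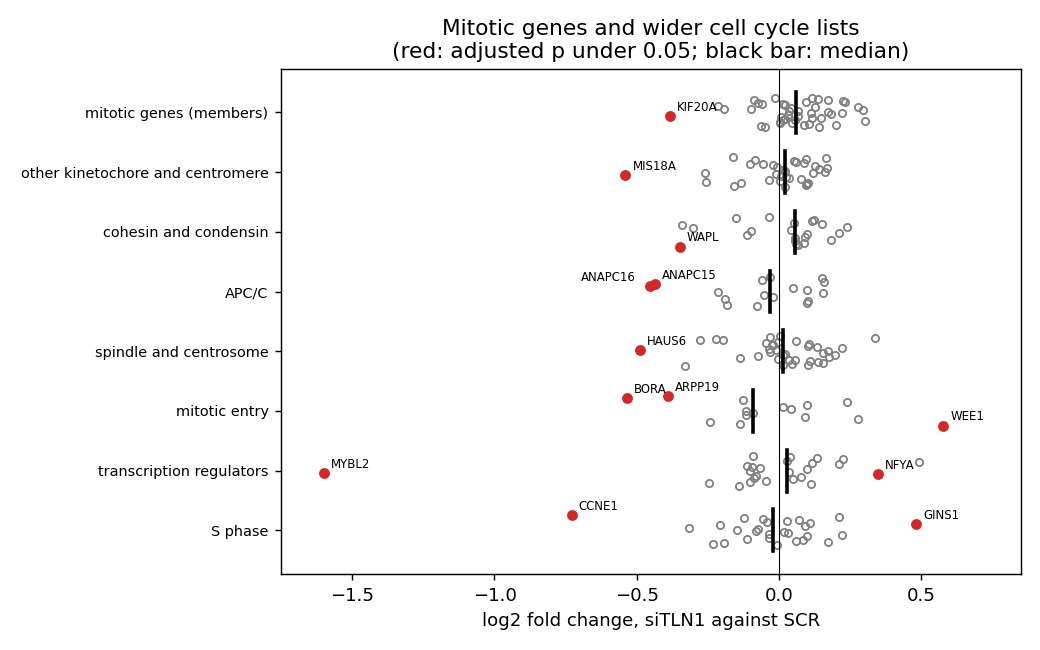
Each circle is a gene, by its log2 fold change of siTLN1 against SCR, in the mitotic genes and 7 wider lists. Red circles passed an adjusted p of 0.05, black bars are list medians, and the vertical place of a circle within its list carries no value. MYBL2 at −1.60 and WEE1 at 0.58 are the outermost genes.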

How the data were processed

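The authors deposited a gene-by-library table of raw counts from featureCounts 2.0.0 on GENCODE 33 (GRCh38), run without options for strand, for reads that touch several genes or for multi-mapping reads, per the file headers. STAR 2.7.9a is named in the submitters' processing notes. Exon length is a deposited column in another unit (bases, other than counts). The deposited log2 CPM values equalled edgeR's TMM-scaled log2 CPM, sorted within groups, in 100% of cases (tolerance 1e-06). Count columns name their group and a number that matches no label, and 0 per-sample columns were left unmapped. By value, library a corresponds to replicate 1 of the deposited log2 CPM and library b to replicate 2, in both groups. For KIF20A, 288 CPM in SCR library a stands beside 8.17 in SCR replicate 1, and 203 CPM in siTLN1 library a beside 7.67 in siTLN1 replicate 1.

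Of 60721 genes, 16137 passed filterByExpr (minimum count 10, minimum total 15). Groups were compared with edgeR 4.0.16 in R 4.3.3 (TMM, robust glmQLFit, glmQLFTest), with adjustment over all tested genes and a threshold of 0.05. Intervals are 95% from that fit. Replicates differed by more than counting noise (chi-square per degree of freedom 13.3 and 18.3). On simulated data edgeR recovered 200 of 200 genes changed 2-fold (15808 tested, 17 false calls) and 61 of 200 changed 1.3-fold (15825 tested, 5 false calls). With no gene changed, 2 calls were made. The simulated libraries were drawn independently, without a difference between a and b libraries shared by the groups, and the changed genes were at 5 CPM or more. These figures therefore do not cover such a shared difference or genes at lower levels.

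The members and lists were chosen with earlier results of these data known. Members given in full are those past the threshold, the smallest p in each of 10 roles, and the largest rise and fall. Wider lists name up to 2 changed genes each, and ARPP19 was added after its value was seen. Alternatives used DESeq2 1.42.0, limma 3.58.1, other scalings and filters, a gene-length trend (span 0.3), a replicate block and each library left out. A restriction by shared exon bases was added after seeing the data. Promoters are from RefSeq (GRCh38.p14), and transcripts from GENCODE 29. Figures used Python 3.11.15.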

Additional observations from a re-analysis of the deposited data

How the results depend on the processing

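With all 4 libraries and no replicate block, the count of mitotic genes changed depended little on the alternative. No filter on low counts gave 0 (KIF20A at −0.37), with 2.03% of all genes changed. Removal of the gene-length trend gave 2 (KIF20A and NUF2), with 8.71% of all genes changed. Every other such alternative gave 1 (KIF20A), with between 5.25% (DESeq2) and 7.76% (total counts only) of all genes changed. With no filter, 7 members had an unadjusted p under 0.05, and 1 passed in DESeq2. Leaving out 1 library gave between 0 and 1 changed members: CENPF, as higher, without SCR library a or siTLN1 library b, KIF20A with SCR library b left out, and 0 with siTLN1 library a left out (2 at an unadjusted p under 0.05). KIF20A then ranged from −0.47 to −0.29. In these fits the lone library is assumed to vary like the other group. In these fits the members' median lay between 0.0003 (SCR library b left out) and 0.15 (SCR library a left out), and the count of changed genes between 324 (siTLN1 library a left out) and 1100 (SCR library a left out). Among the 42 members with under 50% of exon bases shared, 1 changed and the median was 0.067.

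To check the pairing of replicate numbers, the replicate 1 minus replicate 2 differences of the groups were correlated across genes. The coefficient was 0.19, or 0.536 among genes with at least 5 CPM, but 2 pairs are too few and no label states a shared preparation. With the replicate block, limma-trend on the deposited log2 CPM gave 3645 changed genes (22.6%), 1709 higher and 1936 lower. It gave 12 changed members (10 higher, 2 lower), and the members' median was 0.060. The 12 were CDC25B and KIF20A, lower, and CDC25C, BUB1, BUB1B, AURKB, INCENP, CENPF, NUF2, ECT2, ESPL1 and TOP2A, higher. For the 23 named genes, 213 alternative values from fits of all 4 libraries stayed on their side of the threshold, 9 lost the call and 8 gained it, with no change of direction. With a library left out, 66 kept both and 26 lost the call. NUSAP1 had the fewest counts of the members, with 33 in its lowest library, and 81.4% of its exon bases are shared with other genes.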

Other observations

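The 7-base word GACAACA, chosen with earlier results of these data known, was looked up in the members as a description. In 12851 tested protein-coding genes (GENCODE 29, the transcript with the longest coding sequence), 7.36% held the word in the 3′ UTR, with a median log2 fold change of −0.099, against 0.013 for genes without it. Because the word was chosen with results of these data known, this difference is not independent of the choice and is given only as a description. The sets also differed in 3′ UTR length, with medians of 2961.5 bases and 896 bases, and the part of length in the difference was not tested. Of the 44 mitotic genes, 2 (4.55%) held it there. In each site printed here, the capitals mark the word, on the transcript's strand.

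TTK, 3′ UTR: tacatttgaaGACAACAtcactctgaa
TOP2A, 3′ UTR: aagactcgggGACAACAtttgatccaa
KIF20A, coding sequence: caggaagccaGACAACAgtcagtggcc
MYBL2, coding sequence: gtactccatgGACAACActccccacac
MYBL2, coding sequence: tatcaaagaaGACAACAgcttgctcaa

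Neither TTK (log2 fold change −0.047) nor TOP2A (0.20) passed the test. KIF20A, which fell by 0.38, holds 1 copy in its coding sequence and none in its 3′ UTR of 302 bases, and MYBL2 holds 2 copies in its coding sequence and none in its 3′ UTR of 409 bases. Members that did not pass hold coding copies too, among them ASPM with 3, and CCNB1, CDC25C, CDC20, ANLN and TPX2 with 1 each.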
